A study of Bos taurus with 4 samples.

Results

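Inhibins, activins and their antagonists were followed through 6 genes: INHA, INHBA and INHBB, which encode the subunits, FST and FSTL3, which encode binding proteins that neutralise activin, and AMH, which encodes anti-Müllerian hormone. The members were every probe whose symbol in the platform annotation was 1 of these 6. The rule found 6 probes, 1 for each gene, among 43794 probes on the array. All 6 probes were above background in 8 of 8 pools and stayed among the 26181 probes that were tested.

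Inhibins pair the alpha subunit with a beta subunit, whereas activins pair beta subunits with each other. Granulosa cells of growing follicles secrete both: inhibin lowers FSH release from the pituitary, activin acts locally through SMAD proteins, and follistatins bind activin in the follicular fluid. AMH comes from the granulosa cells of small growing follicles, restrains follicle recruitment in mice, and its blood level is used in cattle to predict how many follicles answer to stimulation.

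The study collected granulosa cells, which surround the oocyte inside the follicle, from 94 Holstein cows after ovarian stimulation and coasting, a gonadotrophin-free interval before follicle aspiration. Cows whose oocytes were mostly competent to form embryos were rated good donors, and the others poor donors. The question was how their transcripts differ. Arrays 1 and 2 carried the good-donor pools 1 and 2, labelled with Cy5, against the poor-donor pools 5 and 6, labelled with Cy3. The dyes were exchanged on arrays 3 and 4, which carried the poor-donor pools 7 and 8 in Cy5 against the good-donor pools 3 and 4. Both donor groups therefore shared the breed, the stimulation and the coasting. The labels do not give the number or the identity of the cows in a pool, nor ages, so p-values measure the spread between these pools. In pooled RNA, fewer cells of a type and less RNA per cell cannot be told apart.

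Levels below are log2 intensities after normalization within and between arrays, 1 spot per pool, and a ratio is the poor-donor pool over the good-donor pool of the same array. With 1 spot per pool there is no spread for a single pool, and the level of one probe is not set against that of another. The median probe had a raw intensity of 49 to 58 in the Cy5 channel of the 4 arrays and of 121 to 164 in the Cy3 channel. The granulosa markers FSHR, CYP19A1 and AMHR2 were above background in 8 of 8 pools and FOXL2 in 7 of 8. Both FOXL2, at 6.33 to 6.88, and AMHR2, at 6.94 to 7.43, gave dim signals. The mean level of 7 granulosa markers was 10.34 to 10.45 in good pools and 10.07 to 10.43 in poor pools. Theca markers had mean levels of 6.74 to 7.05 and 6.58 to 6.99, leukocyte markers 6.98 to 7.39 and 6.86 to 7.63, and endothelial markers 6.26 to 6.74 and 6.55 to 6.74. Stroma markers had 8.87 to 10.30 and 9.76 to 10.68, and red cell markers 7.05 to 8.40 and 7.36 to 8.47. Surface or oviduct epithelium markers had 8.91 to 12.12 and 9.12 to 11.94, so the pools also held signal of genes from other cell types. Of the endothelial markers PECAM1 was not above background in any pool, KDR was in 8 of 8 pools, CDH5 in 7 and VWF in 5.

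Between poor and good donors 0 of 6 genes passed an adjusted p of 0.05 in the limma fit, where 0% of the tested probes passed. At an unadjusted p under 0.05 there was 1 of 6, INHA, where 5.96% of the tested probes passed. INHA also met the looser rule that asks for an unadjusted p under 0.05 and at least 1.5-fold, which 0.325% of tested probes met. INHBB was the only member whose ratio was above 0 on all 4 arrays, as for 5.46% of tested probes, and the only one whose donor groups did not overlap, as for 2.22%.

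**Figure D1:**
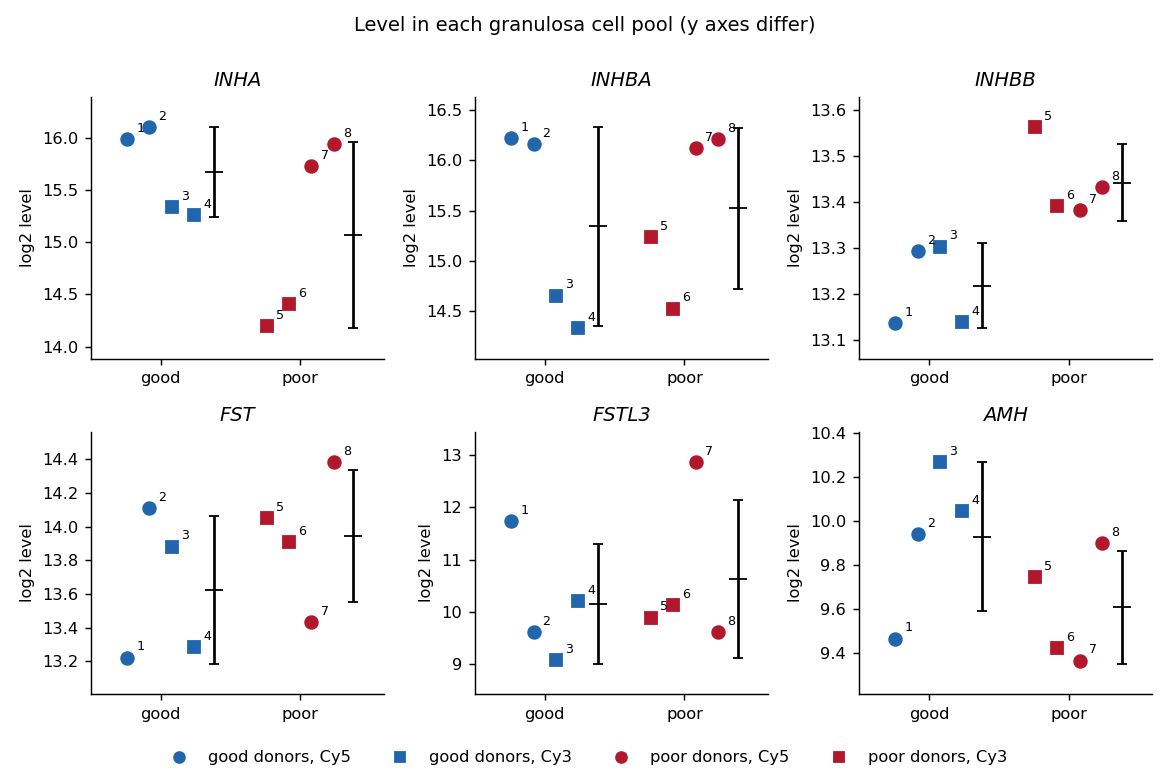
Log2 level of each gene in the 8 pools, numbered, by donor group (blue good, red poor) and dye (circles Cy5, squares Cy3), with mean and SD (n = 4) beside each group and a separate y axis per gene. INHBB is the gene without overlap between donor groups, INHA and INHBA split by dye, and FSTL3 spans 9.08 to 12.86.

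INHA, the alpha subunit that makes a dimer an inhibin, had levels of 15.99, 16.11, 15.33 and 15.26 in good pools 1 to 4. In poor pools 5 to 8 it had 14.19, 14.41, 15.73 and 15.94. The donor groups overlapped, since the poor pools 7 and 8 in Cy5 lay above the good pools 3 and 4 in Cy3. The means were 15.67 ± 0.43 in good and 15.07 ± 0.89 in poor pools (SD, n = 4). Within each dye, though, both poor pools had a normalized level below both good pools, by 1.00 in Cy3 and by 0.21 in Cy5. In the raw medians this separation was present in Cy3 but not in Cy5, where poor pool 8 had the highest value. Separation of normalized levels in the same direction within both dyes was found for INHA and INHBB, 2 of 6 members, and for 5.4% of tested probes. Within a single dye, good and poor pools lay on different array pairs. A donor difference within a single dye, here and below, therefore cannot be told from one between array pairs.

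The INHA ratio was -1.79, -1.70, 0.40 and 0.68 on arrays 1 to 4, a mean of -0.60 ± 1.32 (SD, n = 4) that corresponds to 0.658 of the good-donor level. In limma the difference had a 95% interval of -0.81 to -0.39 and an unadjusted p of 0.000936, with an adjusted p of 0.822 over all tested probes. This interval leaves out the gap between the 2 array pairs, which the dye term of the fit takes up. Without the dye term the adjusted p was 1, and in a fit to the separate channels it was 0.202. Among all settings tried the lowest was 0.0803, in Cy3 alone, a setting chosen after the data had been seen, and in Cy5 alone it was 0.892.

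INHBA, the beta A subunit shared by inhibin A and activin A, had levels of 16.22, 16.16, 14.66 and 14.33 in good pools 1 to 4 and 15.24, 14.53, 16.12 and 16.21 in poor pools 5 to 8. Every Cy5 pool lay above every Cy3 pool, whichever donor group it held. Its ratio was -0.99, -1.64, 1.47 and 1.88 on arrays 1 to 4. The mean was 0.18 ± 1.75 (SD, n = 4), with a limma interval of -0.20 to 0.56 (adjusted p = 0.89). Within Cy3 the poor pools were 0.39 higher on average and overlapped with the good pools, and within Cy5 the difference was -0.03. The mean difference was 0.02 without array 1, 0.08 without array 4 and 0.34 without array 2.

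**Figure D2:**
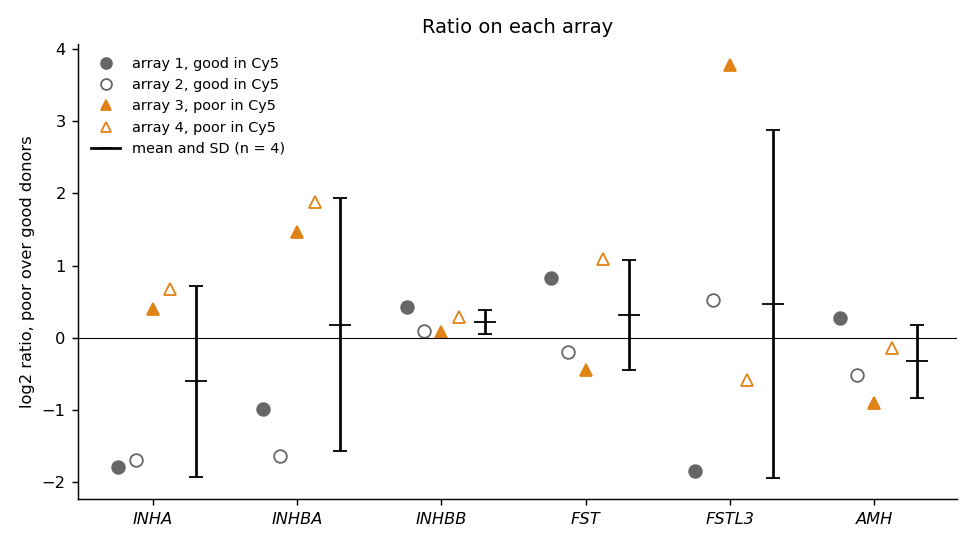
Log2 ratio of poor over good donors on each array, with array 1 and 2 (good in Cy5) as circles, array 3 and 4 (poor in Cy5) as triangles, and the mean with SD (n = 4) as a bar. INHA and INHBA lie below 0 on arrays 1 and 2 and above 0 on arrays 3 and 4, and INHBB lies above 0 on all 4.

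For INHA and INHBA the sign of the normalized ratio followed the dye: the pool in Cy5 had the higher level on all 4 arrays, as for 11% of tested probes. The ratio differed between the array pairs by 2.28 for INHA and by 2.99 for INHBA, and 0.084% and 0.0153% of tested probes had a wider gap. The median gap over all tested probes, regardless of sign, was 0.188. In limma the dye-orientation term had adjusted p = 0.152 for INHA and 0.204 for INHBA, and 0% of tested probes passed 0.05. Dye and the pools of each array pair cannot be told apart in this design.

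The raw brightness of both probes is given beside this result. INHA had median spot intensities of 52695, 53813, 49151 and 57118 in the Cy5 pools 1, 2, 7 and 8, a 1.16-fold range, at 75.0% to 87.2% of the scanner's ceiling of 65535. The means of the same spots were lower, at 36929, 36485, 37011 and 38711, and both poor pools lay above both good pools by this measure. In Cy3 it had 54550 and 54747 in good pools 3 and 4 against 20172 and 25828 in poor pools 5 and 6, a 2.71-fold range, with the good pools at 83.2% and 83.5% of the ceiling. So the good and poor pools stood apart in the raw Cy3 signal and overlapped in the raw Cy5 signal, and bright spots occurred in both dyes. The raw Cy5 over Cy3 quotient of INHA was 2.61, 2.08, 0.901 and 1.04 on arrays 1 to 4, so before normalization Cy5 was the dimmer channel on array 3.

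INHBA had 60961, 55827, 63368 and 65535 in the Cy5 pools 1, 2, 7 and 8, a 1.17-fold range. Its spot in pool 8 was the 1 probe spot on the 4 arrays whose median reached the ceiling, and INHBA was the brightest Cy5 probe on arrays 1, 3 and 4. A median below the ceiling does not show whether part of a spot reached it. This was not tested for the other bright spots of INHBA and INHA. In Cy3 it had 33708 and 27645 in good pools 3 and 4 and 39570 and 27740 in poor pools 5 and 6. A spot at the ceiling gives only a lower bound on brightness, so the INHBA reading of poor pool 8 is such a bound, and its array 4 ratio, mean ratio and gap are not exact values. Without array 4 the gap was 2.78. The mean of that spot was 41055, the highest Cy5 spot mean of any probe and below the ceiling although the median reached it. That mean is also only a lower bound. A spot mean below the ceiling does not show that no part of the spot reached it. Its raw Cy5 over Cy3 quotient was 1.54, 2.01, 1.88 and 2.37 on arrays 1 to 4, where the median tested probe had 0.391 to 0.491.

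**Figure D3:**
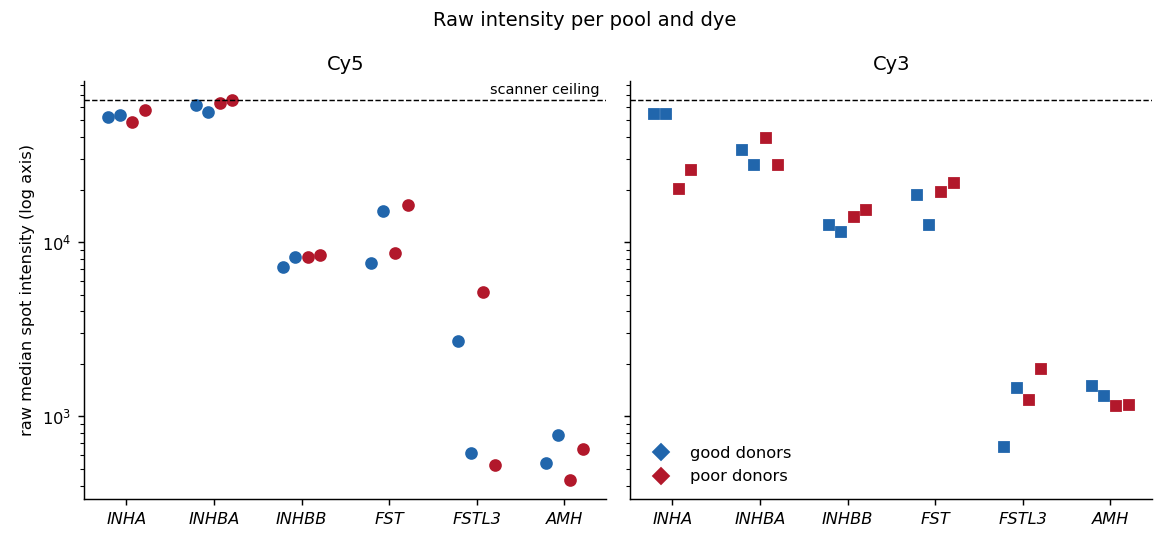
Raw median spot intensity (log axis) of each gene in the 4 Cy5 pools and the 4 Cy3 pools, blue for good and red for poor donors, with the scanner's ceiling of 65535 as a dashed line. INHA and INHBA lie close to the ceiling in Cy5, as do the good-donor Cy3 spots of INHA, while its poor-donor Cy3 spots lie lower.

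Other bright probes had the same tilt. Among the 100 brightest tested probes the median gap between array pairs was 1.23, and 89 read higher in Cy5 on all 4 arrays against 0 that read higher in Cy3. Among the 20 brightest the median gap was 1.82, with 19 higher in Cy5 and 0 in Cy3. The part of brightness in the INHA and INHBA ratios was not tested beyond these values. The gaps of the other members were -0.08 for INHBB, 0.01 for FST, -0.40 for AMH and 2.26 for FSTL3, whose gap was 0.08 without array 3, 1.08 without array 1, 3.44 without array 2 and 4.44 without array 4. That of AMH was -0.01 without array 1, -0.03 without array 3, -0.80 without array 2 and -0.78 without array 4.

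**Figure D4:**
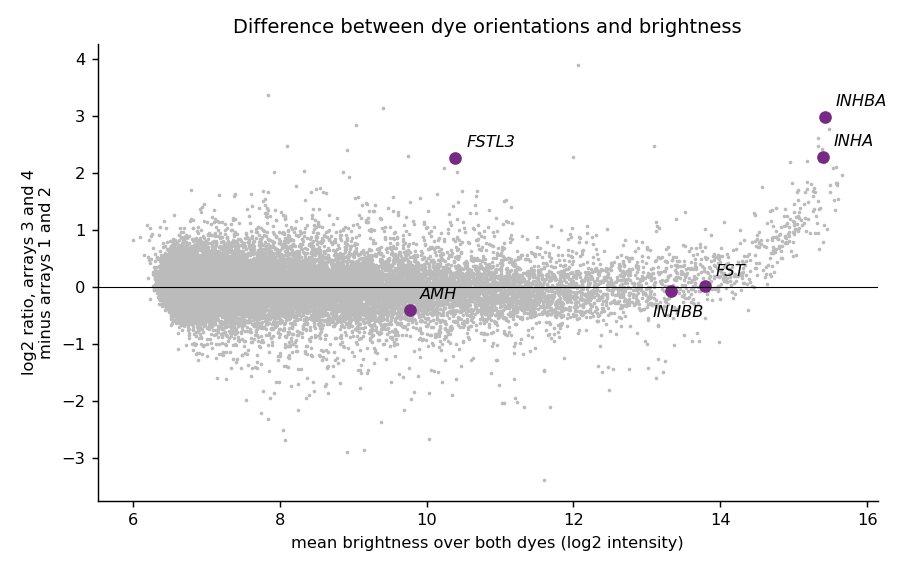
Difference of the log2 ratio between array pairs (arrays 3 and 4 minus arrays 1 and 2) against mean brightness over both dyes for the 26181 tested probes in grey and the 6 genes in purple. The cloud bends upward at the bright end, where INHA (2.28) and INHBA (2.99) lie, while FSTL3 (2.26, and 0.08 without array 3) lies above the cloud at middle brightness.

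INHBB, the beta B subunit of inhibin B and activin B, was the most even member. Its levels were 13.14, 13.29, 13.30 and 13.14 in good pools 1 to 4 and 13.56, 13.39, 13.38 and 13.43 in poor pools 5 to 8. The lowest poor pool, at 13.38, lay just above the highest good pool, at 13.30. The means were 13.22 ± 0.09 and 13.44 ± 0.08 (SD, n = 4), and the whole range over the pools was 1.35-fold. The poor pools were also higher within each dye, by 0.26 in Cy3 and 0.19 in Cy5, without overlap in either. Raw medians did not overlap in Cy3, at 12553 and 11493 in good and 14035 and 15303 in poor pools, and overlapped slightly in Cy5, at 7227 and 8262 in good and 8252 and 8478 in poor pools.

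The INHBB ratio was 0.43, 0.10, 0.08 and 0.29 on arrays 1 to 4, or 0.22 ± 0.17 (SD, n = 4), which is 1.17-fold higher in poor donors. Its limma interval of -0.01 to 0.46 included 0 (unadjusted p = 0.059, adjusted p = 0.83). It was 0.14 without array 1. In the authors' deposited table the INHBB ratios were 0.47, 0.18, 0.02 and 0.21 on arrays 1 to 4, above 0 on all 4 as well.

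FST, follistatin, binds activin almost irreversibly and keeps it from its receptors. Its levels were 13.22, 14.11, 13.88 and 13.29 in good pools 1 to 4 and 14.05, 13.91, 13.43 and 14.38 in poor pools 5 to 8. The donor groups overlapped: good pools 1 and 4 and poor pool 7 were low and the other pools high, a 2.24-fold range. The ratio was 0.83, -0.20, -0.45 and 1.10 on arrays 1 to 4, or 0.32 ± 0.76 (SD, n = 4), with a limma interval of -0.52 to 1.16 (adjusted p = 0.916). Within each dye the poor pools were higher on average, by 0.40 in Cy3, where the groups did not overlap, and by 0.24 in Cy5, where they did. The direction depended on single arrays, since the difference was -0.07 without array 4, 0.06 without array 1, 0.58 without array 2 and 0.71 without array 3.

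FSTL3, a follistatin-like protein that also binds activin, varied most among the members. Its levels were 11.73, 9.61, 9.08 and 10.20 in good pools 1 to 4 and 9.89, 10.13, 12.86 and 9.62 in poor pools 5 to 8. Good pool 1 and poor pool 7 stood apart from the rest on the high side, and the donor groups overlapped. The raw intensities behind the extremes were 5185 in poor pool 7 and 528 in poor pool 8, both in Cy5 and far from the ceiling, a 9.82-fold range within 1 dye and donor group. After levels were centred within each dye FSTL3 spanned 9.49-fold, and 0.202% of tested probes spanned more.

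The FSTL3 ratio was -1.84, 0.52, 3.78 and -0.59 on arrays 1 to 4. Arrays of the same dye orientation thus had opposite signs, and the mean of 0.47 ± 2.41 (SD, n = 4) had a limma interval of -1.73 to 2.67 (adjusted p = 0.957). The mean difference was -0.62 without array 3, -0.12 without array 2, 1.06 without array 1 and 1.56 without array 4, so these data give FSTL3 no direction between donor groups. Only 0.084% of tested probes had a larger SD over the 4 ratios, against a median SD of 0.201.

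AMH had levels of 9.47, 9.94, 10.27 and 10.05 in good pools 1 to 4 and 9.75, 9.42, 9.37 and 9.90 in poor pools 5 to 8. Good pool 1 lay among the poor pools, so the groups overlapped, and the other good pools lay above all poor pools. The means were 9.93 ± 0.34 and 9.61 ± 0.26 (SD, n = 4). Within Cy3 the poor pools were 0.57 lower without overlap, and within Cy5 the difference was -0.07 with overlap.

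The AMH ratio was 0.28, -0.52, -0.90 and -0.15 on arrays 1 to 4, lower in poor donors on 3 of 4 arrays, with a mean of -0.32 ± 0.51 (SD, n = 4), or 0.800 of the good-donor level. Its limma interval was -0.83 to 0.19 (adjusted p = 0.847). The difference was -0.12 without array 2, -0.13 without array 3, -0.52 without array 1 and -0.51 without array 4. The raw AMH signal ran from 431 to 780 in Cy5 and from 1144 to 1499 in Cy3, far from the ceiling. Counted within Cy3 alone, donor groups did not overlap for 4 of 6 members (INHA, INHBB, FST and AMH), as for 39.4% of tested probes, and within Cy5 alone for 2 of 6 (INHA and INHBB), as for 34.8%.

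The members were then set against each other. Levels centred within each dye were correlated over the 8 pools for all 15 pairs, where pools of 1 array share the spot. With exact two-sided permutation tests 5 pairs had p under 0.05 and 0 of 15 had an adjusted p under 0.05, the smallest being 0.127. Exact means here that every ordering of the pools was run. The orderings moved pools freely across dyes, arrays and donor groups, although the centring and the shared spots tie pools together. All these p-values are therefore a description. The strongest pair was opposite: FST was low where FSTL3 was high, with Pearson's r of -0.776 (exact permutation p = 0.0233, adjusted p = 0.127), Spearman's rho of -0.833 (exact permutation p = 0.0154) and r of -0.882 without the 2 pools farthest from the median. Before the centring r was -0.679 (exact permutation p = 0.0652). In every member pair the 2 farthest pools were picked by the gene named first, and for the beta subunits by INHBA. Here that gene was FST, so poor pool 7, the highest in FSTL3, stayed in.

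The alpha subunit ran with AMH, with r of 0.754 (exact permutation p = 0.0367, adjusted p = 0.127), rho of 0.714 (exact permutation p = 0.0576) and r of 0.782 without the 2 farthest pools. This relation rested on the centring, since r was 0.108 before it (exact permutation p = 0.785). INHA ran against INHBB, with r of -0.74 (exact permutation p = 0.0362, adjusted p = 0.127), rho of -0.786 (exact permutation p = 0.0279) and r of -0.684 without the 2 farthest pools, and before the centring r was -0.516 (exact permutation p = 0.191). Within each dye INHA was lower and INHBB higher in the poor pools. Donor group was not taken out of r for any pair, and how far this r restates those donor differences was not tested. FSTL3 and AMH gave r of -0.745 (exact permutation p = 0.0381, adjusted p = 0.127), rho of -0.738 (exact permutation p = 0.0458) and r of -0.671 without the 2 farthest pools, and before the centring r was -0.775 (exact permutation p = 0.0146). The relation of the 2 beta subunits rested on single pools: r was 0.696 (exact permutation p = 0.0482, adjusted p = 0.127) with rho of 0.452 (exact permutation p = 0.267), and r was -0.334 without the 2 farthest pools and 0.0769 before the centring. The alpha and beta A subunits had r of -0.621 (exact permutation p = 0.0958, adjusted p = 0.205) with rho of -0.31 (exact permutation p = 0.462) and r of -0.378 without the 2 farthest pools, and before the centring r was 0.696.

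STAR, which carries cholesterol into mitochondria for steroid synthesis and increases as granulosa cells luteinise, had levels of 12.42, 8.50, 8.96 and 10.59 in good pools 1 to 4 and 9.92, 10.77, 13.21 and 9.46 in poor pools 5 to 8. The pools with the highest STAR, 7 and 1, were also those with the highest FSTL3. Centred within dye, FSTL3 and STAR had r of 0.974 (exact permutation p = 7.44e-05, adjusted p = 0.000446 over 6 members), rho of 0.976 (exact permutation p = 0.000397) and r of 0.969 without the 2 farthest pools. STAR was set against the members after its values had been seen, so these p-values are a description. In the pairs with STAR the 2 farthest pools were picked by the STAR level alone.

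FST and AMH ran against STAR. For FST r was -0.776 (exact permutation p = 0.027, adjusted p = 0.062), rho of -0.762 (exact permutation p = 0.0368) and r of -0.799 without the 2 farthest pools. AMH had r of -0.772 (exact permutation p = 0.031, adjusted p = 0.062), rho of -0.833 (exact permutation p = 0.0154) and r of -0.718 without them. INHA, INHBA and INHBB had r between -0.306 and -0.147. The order of the pools crossed the donor groups. Among the Cy5 pools FST and AMH were low in good pool 1 and poor pool 7, where STAR was highest. They were high in good pool 2 and poor pool 8, where STAR was low. The Cy3 pools were mixed. Centred STAR, FST and AMH levels were 0.71, 0.126 and -0.449 in poor pool 6 and 0.53, -0.496 and 0.176 in good pool 4. In poor pool 5 they were -0.144, 0.27 and -0.124, and in good pool 3 they were -1.096, 0.099 and 0.397.

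**Figure D5:**
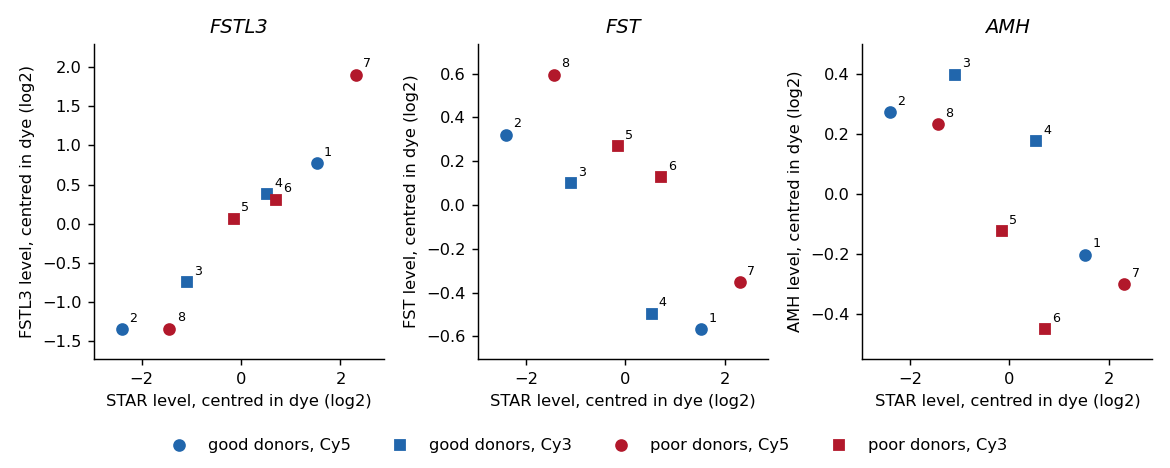
Level of FSTL3, FST and AMH against that of STAR in the 8 numbered pools, both centred within dye on the log2 scale, with good donors in blue, poor donors in red, Cy5 as circles and Cy3 as squares. FSTL3 climbs with STAR (r = 0.974), and FST (r = -0.776) and AMH (r = -0.772) descend, with pools of both donor groups at either end.

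The 5 luteinising markers, all above background in 8 of 8 pools, had mean levels of 10.15 to 12.38 in good pools and 10.79 to 12.24 in poor pools. Of the 5, STAR and TIMP1 were highest in pools 7 and 1, like FSTL3, with TIMP1 at 13.29 and 12.66. The steroidogenic genes CYP11A1, HSD3B1 and SCARB1 were highest in pool 1, at 13.69, 12.36 and 10.77, but not high in pool 7, at 13.18, 11.32 and 10.19, the last being the lowest SCARB1 level of the 8 pools. Stroma markers spanned 8.87 to 10.30 in good and 9.76 to 10.68 in poor pools, and surface or oviduct epithelium markers 8.91 to 12.12 and 9.12 to 11.94. The part of these cell types in the member levels was not tested.

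Genes whose centred level was most like a member's were taken from 885 annotated genes that spanned at least 2-fold over the 8 pools. For FSTL3 these were COBLL1 (r = 0.988), FSCN1, which encodes the actin-bundling protein fascin (0.985), NELL2 (0.983), MARCKSL1 (0.982) and PLAUR, the urokinase receptor (0.979). STAR ranked 6 and TIMP1, an inhibitor of matrix metalloproteinases, ranked 20 of 885. For FSTL3, 62 of the 885 genes (7.01%) had r of at least 0.9, against 4 for INHA, 2 for AMH and 0 for INHBA and FST. Of the 5 members compared in this way, FSTL3 had the most genes at that likeness. FSTL3 was added to this comparison after its values had been seen.

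Closest to AMH were ZNF24 (r = 0.947), CALB2, which encodes the calcium-binding protein calretinin (0.913), PEA15 (0.894), PTP4A3, a protein tyrosine phosphatase (0.867), and RUNX1T1, a transcriptional corepressor (0.848). Closest to INHA were POFUT2 (0.924), TRAPPC9 (0.911), PKN3 (0.908), LOC533921 (0.901) and LOC503858 (0.892). Closest to FST were SLC38A2, a neutral amino acid transporter (0.888), TCEA3 (0.864), LOC783577 (0.857), SLC25A6, an ADP/ATP carrier of mitochondria (0.844), and UTP14A (0.813). Closest to INHBA were LOC513767 (0.867), CST3, the protease inhibitor cystatin C (0.838), PIGC (0.836), NRIP3 (0.818) and C4A (0.802). By ranks the likeness to INHBA was weaker for LOC513767, PIGC and C4A, with rho of 0.5, 0.381 and 0.476. For CST3 and NRIP3 rho was 0.81 and 0.833. With 8 pools and 885 genes such values are a description of likeness only.

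Of 11 receptor genes, all tested, 0 passed the adjusted threshold, 1 had an unadjusted p under 0.05 (6.97% of 10976 named genes), and 7 had a mean ratio above and 4 below 0, with a median of 0.06 against 0.00075 over all named genes. The receptor gene with an unadjusted p under 0.05 was ACVR2B, a type II activin receptor, at 0.22 ± 0.11 (SD, n = 4; unadjusted p = 0.0311, adjusted p = 0.829), above 0 on all 4 arrays. ACVR1B, the type I activin receptor, had 0.11 ± 0.25, and AMHR2, the AMH receptor, -0.01 ± 0.27 from a dim probe.

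Of 10 SMAD signalling genes 8 were tested and 0 passed either threshold, with 5 above and 3 below 0 and a median of 0.01. SMAD4, the partner shared by the activin and BMP branches, had 0.16 ± 0.30 and SMAD9 -0.06 ± 0.15 (SD, n = 4). Among other ligands and regulators outside the cell 7 of 16 genes were tested and 0 passed either threshold, with 5 above and 2 below 0 and a median of 0.03. FSTL1 had 0.25 ± 0.28 and BAMBI, a decoy receptor, 0.41 ± 0.81. Processing enzymes, which cleave the precursors, had 5 of 6 genes tested, 3 above and 2 below 0 and 0 past either threshold, with FURIN at -0.05 ± 0.04 and PCSK7 at 0.08 ± 0.33.

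Of 11 transcriptional regulators of the members 7 were tested, with 1 above and 6 below 0, a median of -0.11 and 0 past the adjusted threshold. An unadjusted p under 0.05 was found for 2 of 7, against 6.97% of the named genes, of which 5525 had a ratio above and 5451 below 0. NR5A2, a nuclear receptor of granulosa cells, had -0.24, -0.30, -0.24 and -0.24 on arrays 1 to 4, or -0.25 ± 0.03 (SD, n = 4; unadjusted p = 0.0114, adjusted p = 0.822), the same size in both dye orientations. WT1, a transcription factor of early follicles, had -0.30 ± 0.33 (unadjusted p = 0.0345, adjusted p = 0.829) and was close to 0 on array 3, at 0.01. FOXL2, a granulosa identity factor, had -0.11 ± 0.30 from a dim probe. FSHR, the receptor that drives inhibin and aromatase expression, had -0.03 ± 0.22.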

How the data were processed

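Spot and local background intensity per scanner wavelength (532 nm for Cy3, 635 nm for Cy5) were deposited without normalization, per the file headers. The authors also deposited a log2 ratio per probe and array. The sources used here do not give how it was normalized. Its column medians were 0.00047, 0.00025, 0.0026 and -9.92e-05, and it correlated at 0.971 to 0.980 with the poor over good ratio computed here, which settles its direction. RNA was amplified linearly over 2 rounds, per the labels' protocols. Each of the 4 arrays, areas of a single slide, held 45212 spots.

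Median intensities were background-corrected (limma 3.58.1 in R 4.3.3, normexp, offset 50) and normalized by loess within arrays (span 0.3) with control spots at weight 0. Pool levels add Aquantile normalization between arrays. Tested probes (59.8%) exceeded the mean of 153 negative controls by 2 SD in each of the 4 pools of one donor group or both. Per probe, lmFit and eBayes fitted poor over good and a dye-orientation term, with 2 residual and 2.51 prior degrees of freedom, and Benjamini-Hochberg adjustment over 26181 probes. Symbols came from the platform annotation (21790 probes named, 22004 unnamed). All member probes were named. The 5 genes of highest r were named for INHA, INHBA, FST and AMH, and for FSTL3 after its values were seen. The 2 genes of smallest p were named from each pathway list, with FOXL2, FSHR and AMHR2 as markers. Members and lists were chosen with earlier results of these data known. The functions were tested on simulated data. The number of arrays limits the precision. No coordinates are printed, since no source used here names the build behind the probes.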

Additional observations from a re-analysis of the deposited data

Results flagged for a closer look

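INHA and INHBA were marked because both arrays of 1 dye orientation had a ratio of one sign and both arrays of the other orientation the opposite sign. The poor over good ratio of INHA was 2.28 higher on arrays 3 and 4 than on arrays 1 and 2 (limma dye-orientation term, unadjusted p = 5.82e-05, adjusted p = 0.152), and that of INHBA was 2.99 higher (unadjusted p = 0.000242, adjusted p = 0.204). Neither passed an adjusted p of 0.05. The raw median intensities of both probes in Cy5, at 75.0% to 100% of the scanner's ceiling, stand beside this in the report.

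FSTL3 in poor pool 7, at a log2 level of 12.86, stood apart from the other 3 poor pools, which had 9.62 to 10.13, past Dixon's 95% limit for 4 samples. Chance marks about 1 in 20 such groups. The same pool had the highest STAR level of the 8 pools, at 13.21.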

How the results depend on the processing

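The count of 0 probes past an adjusted p of 0.05 between donor groups, with 1560 at an unadjusted p under 0.05, was also 0 under every alternative run, and so was the count for the dye-orientation term. The count past the looser rule was 85, and 32 with mean spot intensity, 128 with the deposited ratios, 129 with local background subtracted, 292 without array 2, 331 without array 4, 617 in Cy3 alone and 396 in Cy5 alone, the last 2 chosen after seeing the data. Of 84 member differences under alternatives 80 kept their sign and none passed the threshold. Leaving out each array gave -0.066 to 0.71 for FST and -0.62 to 1.56 for FSTL3, and INHBA had -0.026 in Cy5 alone. The gap between dye orientations of INHA stayed at 1.96 to 2.42 and that of INHBA at 2.66 to 3.31, with adjusted p of 0.0783 to 0.717 and 0.0783 to 0.765. That of FST was -0.1641 with local background subtracted, -0.1615 with median centring, -0.1686 with the deposited ratios and -0.7628 to 0.78 leaving out each array, that of INHBB -0.2416 to 0.0883, that of AMH -0.80 to -0.01 and that of FSTL3 0.08 to 4.44. Not centring levels within dye gave r of 0.108 for INHA and AMH and 0.0769 for INHBA and INHBB, and turned r to 0.696 for INHA and INHBA, 0.251 for INHA and FSTL3 and 0.425 for INHBA and FSTL3. Leaving out the 2 farthest pools, picked by INHBA, turned r to -0.334 for INHBA and INHBB. It also turned r to -0.0431 for INHBA and FST and to 0.534 for INHBA and AMH. The cause of these turns was not tested. With 1 probe per gene, a mean over probes was not run. Each ratio already pairs the 2 pools of an array, and no further replicate block was fitted, since the array groups share no replicate numbers. The INHBA spot of poor pool 8 had its median at the ceiling, which limits what the Cy5 readings of INHBA can show.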
